A study of Mus musculus with 90 samples.

Results

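The alpha-arrestins were followed in mouse liver through 5 of the 24312 gene symbols measured by RNA sequencing, namely Arrdc1, Arrdc2, Arrdc3, Arrdc4 and Txnip. They were chosen by name, with earlier results of these data known, and the study itself shows Arrdc3 as an example of a blunted meal response in obese mice. Counts of members past a threshold are therefore not those of a set picked blind, and the shares of all genes beside them are background only. Where several RefSeq transcripts mapped to a symbol, the one with the highest mean level over all 54 RNA libraries was kept. That choice used the measured level, in RPKM (reads per kilobase of transcript, scaled to library size). The transcript kept for Txnip averaged 60.6 RPKM against 60.5 RPKM for the one left out, that of Arrdc1 averaged 1.28 RPKM against 1.278 RPKM, and that of Arrdc4 averaged 3.13 RPKM against 2.37 RPKM. Arrdc2 and Arrdc3 had 1 transcript each, averaging 10.0 and 17.9 RPKM.

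Alpha-arrestins are cytosolic adaptors that carry an arrestin fold and, in their tail, proline-rich motifs bound by ubiquitin ligases of the NEDD4 family. By bringing these ligases to receptors and transporters they help to mark membrane proteins for internalization and breakdown. Txnip, thioredoxin-interacting protein, also binds and inhibits thioredoxin, restrains glucose uptake, and is known as a gene whose transcription follows glucose. In liver, a meal brings insulin and glucose while the glucocorticoid hormone corticosterone peaks around the onset of feeding, and the glucocorticoid receptor (GR) and the insulin-inhibited factor FOXO1 are transcription factors through which these signals reach genes.

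The RNA libraries, each from a single mouse, came from 5 experiments with 16 groups in livers of mice on a C57BL/6 background trained to night-restricted feeding (NRF), in which food is present in the dark only. In the NRF experiment, 10-week-old wild-type males were killed at zeitgeber time (ZT) 10, at ZT14 without food or at ZT14 after a meal (n = 2 each, ribosomal RNA depleted), and the remaining experiments used poly(A) RNA and ZT14 only. In the injected experiment (wild type, 10 weeks old, n = 4 each), unfed mice received vehicle, and fed mice received vehicle, the glucocorticoid dexamethasone (dex, 1 mg/kg), the insulin receptor antagonist S961, or both before the meal. In the L-GRKO experiment, unfed adult mice with both alleles of the GR gene Nr3c1 floxed received AAV-CRE or AAV-GFP, each driven by the hepatocyte promoter Tbg (n = 4 each), which leaves other liver cells untargeted. In the L-IRSdKO experiment, mice with floxed Irs1 and Irs2, 10 weeks old, carried Cre driven by the albumin promoter (Alb-Cre) or no Cre (n = 4 each), and both groups were fed and had received dex. In the obesity experiment, wild-type males were given high-fat diet (obese) or chow (lean) for 10 weeks from 5 weeks of age and were then killed unfed or fed after NRF (n = 3 each). Positions of GR and FOXO1 binding in unfed livers and of DNase I hypersensitive sites (DHSs) were used as well, and for the DNase libraries livers of several mice were pooled.

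Library depth, recovered from the spacing of low RPKM values, in units of 1e6 reads, was 26.2 to 38.1 in NRF, 6.45 to 13.5 in injected, 15.2 to 27.3 in L-GRKO, 3.66 to 4.5 in L-IRSdKO and 16.8 to 61.8 in obesity libraries. The L-IRSdKO libraries stood apart from all others. Their highest gene lay at 674 to 914 RPKM, against 18853 to 60597 RPKM in the other 46 libraries, their summed hepatocyte markers were at 1695 to 2156 RPKM against 26707 to 71035 RPKM, and levels there are therefore not set against levels of other experiments. The targeted Nr3c1 was at 3.93 to 5.35 RPKM with AAV-CRE and at 12.8 to 16.2 RPKM with AAV-GFP. In L-IRSdKO livers Irs1 was at 0.149 to 0.321 RPKM against 2.21 to 4.73 RPKM in controls, while Irs2 ranged from 0.272 to 1.00 RPKM against 0.614 to 5.61 RPKM, so its groups overlapped.

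**Figure D1:**
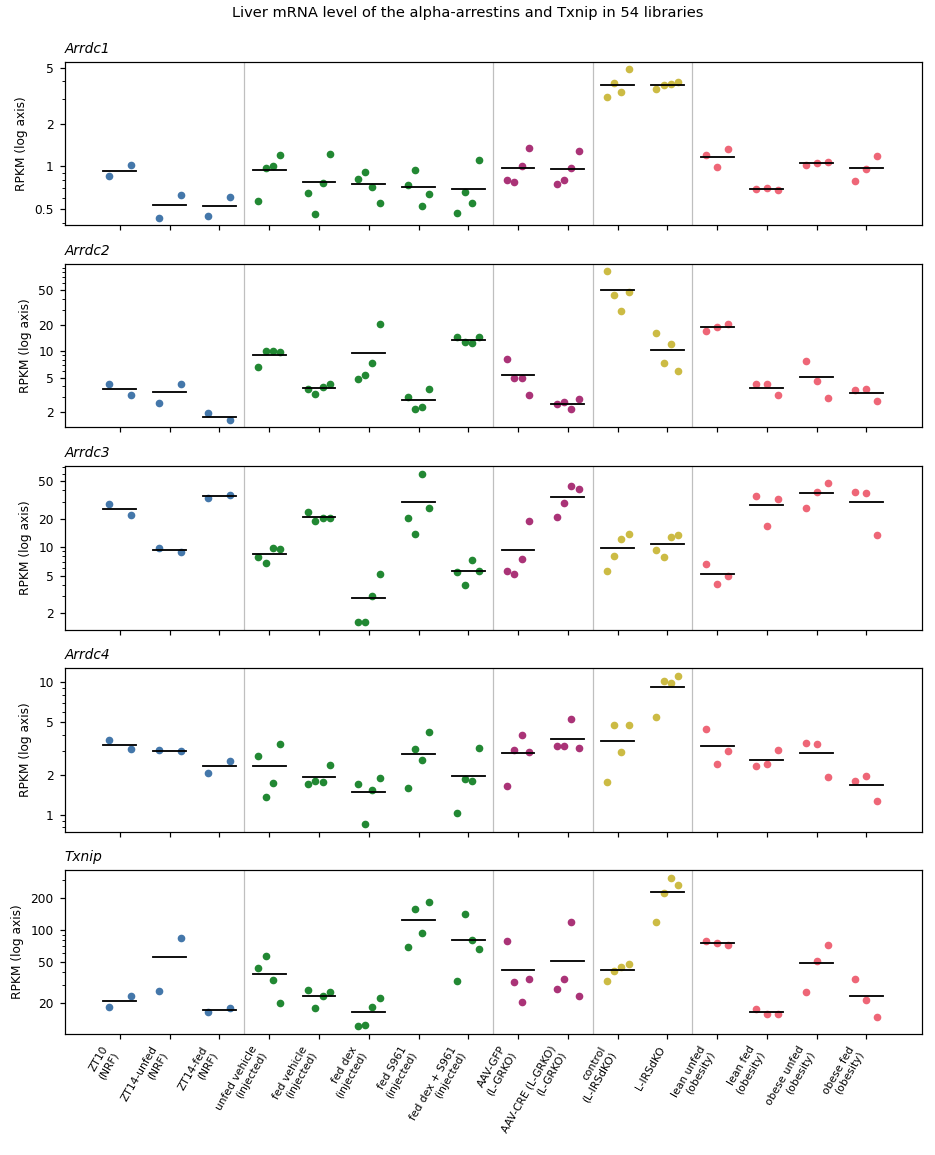
Level of each gene in RPKM on a log axis in the 54 RNA libraries, one panel per gene, with the 16 groups along the horizontal axis; points are single mice and lines are group means. Txnip was the highest of the 5 on average and Arrdc1 the lowest, Arrdc3 was lowest with dex at 1.60 to 5.19 RPKM, and the L-IRSdKO libraries are on a scale of their own.

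All 5 genes passed the filter on low values (a mean of at least 0.5 RPKM in the experiment) in each experiment and were tested with limma on log2(RPKM + 0.5), with Benjamini-Hochberg (BH) adjustment over all genes that passed. Fold changes below are differences on that scale, which understates the change of low genes, and the threshold was an adjusted p of 0.01 in the NRF and obesity experiments and 0.05 in the others. The median difference of all genes was 0.12 for the meal at ZT14 in NRF mice, 0.10 for the meal in injected mice and -0.14 for dex with S961, within 0.1 of 0 elsewhere, and scaling by median ratios removed these shifts and changed only the call of Arrdc1 noted below. A difference in bulk liver does not tell fewer cells of a type from less RNA per cell.

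Arrdc3 was the only one of the 5 past the threshold in NRF mice. The shares of all genes given as background moved with single libraries left out, so that 2 to 208 genes passed from ZT10 to ZT14-unfed, against 127 with all libraries, and 5 to 235 for the NRF meal, against 108. Between ZT10 and ZT14-unfed 1 of 5 passed where 1.16% of all tested genes did, and for the meal at ZT14 1 of 5 passed where 0.99% did. Both comparisons use the same ZT14-unfed livers, so these calls are not independent of each other. Between ZT10 and ZT14-fed 0 of 5 passed by limma, although 4 of the 5 had an unadjusted p under 0.05, and 1.71% of all genes passed. In injected mice, 1 of 5 passed for the meal (Arrdc2, background 3.13%), 1 for dex (Arrdc3, background 3.19%), 1 for S961 (Txnip, background 1.9%) and 3 for dex with S961 (Arrdc2, Arrdc3 and Txnip, background 10.6%). These treatments share the fed vehicle livers, so their calls are not independent of each other. The interaction of dex with S961 gave 0 of 5, and 0% of all genes passed by limma, while 1 of the 5 and 513 genes had an unadjusted p under 0.05.

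Loss of GR moved 2 of 5 past the threshold (Arrdc2 and Arrdc3, background 6.68%), and loss of Irs1 and Irs2 moved 3 (Arrdc2, Arrdc4 and Txnip) where 17.4% of all genes passed. In lean mice of the obesity experiment, 3 of 5 passed for the meal (Arrdc2, Arrdc3 and Txnip, background 10.2%). In obese mice 0 of 5 did by limma, with 2 of 5 at an unadjusted p under 0.05 and a background of 1.22%. The difference between these meal effects passed for 0 of 5 by limma, with a background of 0.131%, though 4 of the 5 had an unadjusted p under 0.05. Before the meal, obese and lean livers differed in 2 of 5 (Arrdc2 and Arrdc3, background 0.77%). After the meal they differed in 0 of 5 by limma, where 0% of all genes passed and 2 of the 5 and 2284 genes had an unadjusted p under 0.05. The lean meal effect, the difference between meal effects and the comparison before the meal share the lean unfed livers. Their results are thus not independent of each other.

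**Figure D2:**
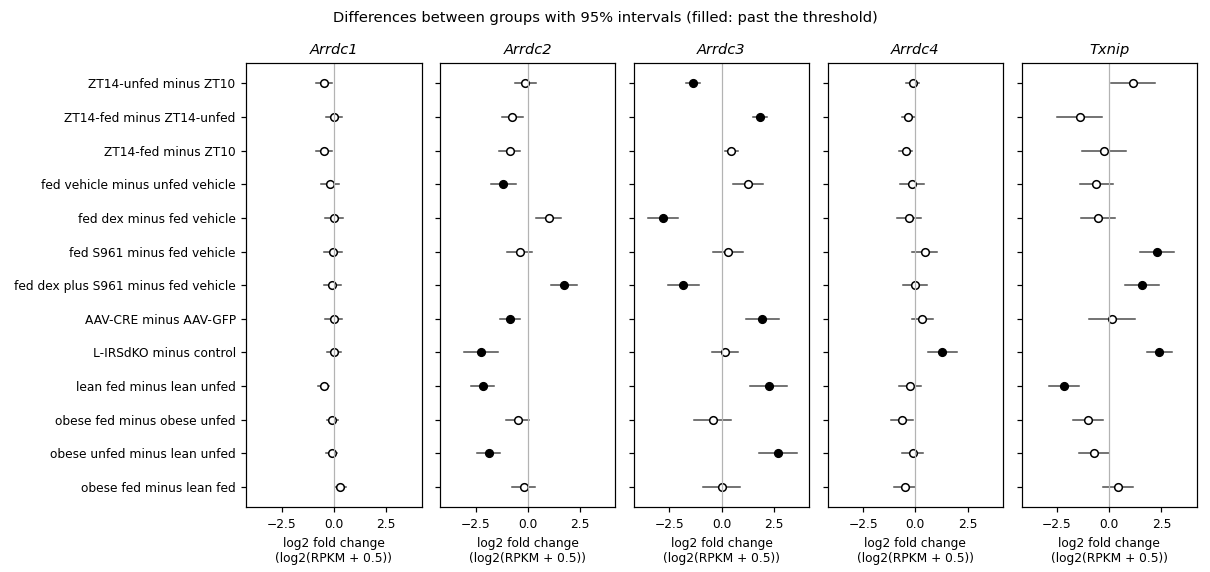
Difference in log2(RPKM + 0.5) for each gene (panels) in each comparison (rows) except the dex by S961 and meal by diet interactions. Lines are 95% intervals from limma, and filled points are past the threshold. The meal effect in lean mice is positive for Arrdc3 at 2.27 and negative for Arrdc2 and Txnip at -2.16 each, and filled points for Arrdc2 and Arrdc3 in the same row lie on opposite sides of 0.

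Arrdc3, an adaptor linked in mice to energy balance and insulin signalling, lies on the plus strand at chr13:81022645-81035296 (mm9). Within 50 kb of its start there was 1 FOXO1 peak, 1 GR peak and 5 DHSs. The FOXO1 peak, at chr13:81025456-81025635, was 2.90 kb downstream of the start in an intron and overlapped no DHS. The GR peak, at chr13:81034228-81034407, was 11.7 kb downstream in the last exon, overlapped a DHS and held none of the motifs searched. The plus strand of the FOXO1 peak is shown because it is the binding position nearest to this start, with the reverse complement of the forkhead motif GTAAACA in capitals. Of FOXO1 peaks, 18.8% held this motif on either strand.

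Arrdc3 FOXO1 peak: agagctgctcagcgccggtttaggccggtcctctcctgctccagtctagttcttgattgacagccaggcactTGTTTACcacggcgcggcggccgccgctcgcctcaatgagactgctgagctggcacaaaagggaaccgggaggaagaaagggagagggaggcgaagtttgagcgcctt

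Arrdc3 rose with the meal in NRF mice. Its level was 28.5 and 21.8 RPKM at ZT10, 9.78 and 8.80 RPKM at ZT14-unfed, and 33.5 and 36.0 RPKM at ZT14-fed. Both unfed ZT14 livers were thus below every other liver of the experiment. The level fell by 1.38 on the log2 scale (SE 0.14, limma, BH-adjusted p = 0.00547) from ZT10 to ZT14-unfed and rose by 1.85 (SE 0.14, limma, BH-adjusted p = 0.00152) from there to ZT14-fed. Without ZT10 replicate 1, ZT10 replicate 2 or ZT14-unfed replicate 2 the first of these was no longer past the threshold, nor was it with the replicate block (0.0159), in the fit of these 2 groups alone (0.0209) or with no filter (limma, BH-adjusted p = 0.0879). The second was lost without either ZT14-fed replicate (0.0277 and 0.0344) and with no filter (limma, BH-adjusted p = 0.0673). With 2 livers a group, a single one carries much of each estimate.

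In injected mice the meal gave the same direction without passing the threshold. Arrdc3 stood at 7.85, 6.87, 9.90 and 9.44 RPKM in unfed vehicle livers and at 23.5, 19.1, 20.1 and 20.5 RPKM in fed vehicle livers, and the groups did not overlap. The difference was 1.25 (SE 0.34, limma, BH-adjusted p = 0.052). With the replicate number as a block the limma BH-adjusted p was 0.0121, and with a term for the library number series of replicate 4 it was 0.0278, both past the threshold. It passed as well in the fit of these 2 groups alone (0.00569), with a pseudocount of 1 (0.0476) and with a filter at 2 RPKM (limma, BH-adjusted p = 0.0488).

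Dex lowered Arrdc3 in fed mice by 7.27 times in mean level. The 4 dex livers had 1.60, 1.62, 3.04 and 5.19 RPKM, all below the lowest vehicle liver, fed or unfed. Arrdc3 changed by -2.79 (SE 0.34; BH-adjusted p = 0.000159 by limma) and stayed past the threshold under every alternative and with any single library left out (adjusted p of at most 0.007). Of the endothelial markers, 2 of 4 were also lower with dex, and the 4 summed to 35.1 to 50.7 RPKM with dex against 53.2 to 62.1 RPKM in fed vehicle livers. None of these 4 was at 0 in either group, and their part in the Arrdc3 result was not tested.

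S961 alone left Arrdc3 at 20.2, 13.8, 60.2 and 26.0 RPKM, a spread that took in the whole fed vehicle range. The difference of 0.30 had a 95% interval of -0.42 to 1.03 (limma, BH-adjusted p = 0.774), and without the liver at 60.2 RPKM it was -0.10. With dex and S961 together Arrdc3 was at 5.50, 4.01, 7.33 and 5.58 RPKM and fell by 1.83 relative to fed vehicle (SE 0.34, limma, BH-adjusted p = 0.00236). The dex effect in the presence of S961 differed from that in its absence by 0.66, with an interval of -0.36 to 1.68. Ordered by mean, Arrdc3 went from dex at 2.86 RPKM through dex with S961 at 5.60, unfed vehicle at 8.51 and fed vehicle at 20.8 to S961 at 30.1 RPKM. In that order only unfed and fed vehicle were neighbours whose livers did not overlap.

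Loss of hepatocyte GR raised Arrdc3 in unfed mice. The AAV-GFP livers had 5.59, 5.25, 7.45 and 18.8 RPKM and the AAV-CRE livers 20.9, 29.7, 44.0 and 41.4 RPKM. Every AAV-CRE liver was above every AAV-GFP liver, although the fourth AAV-GFP liver, at 18.8 RPKM, came close to the lowest of them. The rise was 1.95 (SE 0.36, limma, BH-adjusted p = 0.0099), with means 3.67 times apart, and it was lost in the fit with no filter on low values (limma, BH-adjusted p = 0.131). Among stellate cell markers, 1 of 4 (Lrat) was also higher in this comparison, by 0.47, and its part was not tested.

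Loss of Irs1 and Irs2 in fed, dex-treated mice did not separate Arrdc3. Control livers had 5.64, 8.05, 12.3 and 13.6 RPKM and L-IRSdKO livers 9.22, 7.82, 12.95 and 13.5 RPKM. The difference of 0.17 had an interval of -0.46 to 0.81, so these libraries could not show a change smaller than about these bounds.

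In the obesity experiment, Arrdc3 was low only in lean unfed livers. Lean unfed livers had 6.66, 4.08 and 4.96 RPKM, lean fed livers 35.0, 16.6 and 32.2 RPKM, obese unfed livers 25.7, 38.6 and 47.8 RPKM, and obese fed livers 38.4, 37.2 and 13.6 RPKM. The lean unfed group overlapped none of the others, which overlapped each other. Arrdc3 rose with the meal in lean mice by 2.27 (SE 0.40, limma, BH-adjusted p = 0.00319) and was 2.70 higher in obese than in lean unfed livers (SE 0.40, limma, BH-adjusted p = 0.00672), a 7.14-fold difference of means. In obese mice the meal difference was -0.42, with an interval of -1.31 to 0.47. The meal effect in obese mice differed from that in lean mice by -2.69 on the log2 scale (SE 0.57, unadjusted p = 0.000622) and missed the threshold (limma, BH-adjusted p = 0.0603). After the meal, obese and lean livers differed by 0.02, with an interval of -0.87 to 0.91.

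The lean meal effect of Arrdc3 was no longer past the threshold without lean fed replicate 1 or 3 or lean unfed replicate 2 or 3 (limma, BH-adjusted p of at most 0.0156), nor in the fit with no filter on low values (0.0199). The difference between obese and lean unfed livers was lost without any one of 5 of its 6 libraries, all but obese unfed replicate 1 (adjusted p of at most 0.0287), with no filter (0.0385), with the replicate block (0.0152) and in the fit of these 2 groups alone (limma, BH-adjusted p = 0.0254). Endothelial markers moved with both comparisons, summing to 49.1 to 59.3 RPKM in lean unfed, 36.1 to 42.5 RPKM in lean fed and 28.9 to 37.7 RPKM in obese unfed livers, with 1 of 4 called in each. Adipocyte markers summed to 0.03 to 27.5 RPKM in obese unfed livers, so not every liver of that group was high, and to at most 0.155 RPKM in lean unfed livers. The part of either in the Arrdc3 result was not tested.

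Arrdc2, the family member whose cargo is least described, lies on the minus strand at chr8:73359054-73363619 (mm9) and had 2 GR peaks, 1 FOXO1 peak and 12 DHSs within 50 kb of its start. The nearer GR peak, at chr8:73357471-73357650, was 6.06 kb downstream of the start and 1.4 kb past the end of the gene. It lay in intergenic sequence, overlapped a DHS and had no FOXO1 peak on it. It held 2 matches to the GR palindrome GNACANNNTGTNC, while 7.8% of all GR peaks held any. The peak is shown on the plus strand for these matches, in capitals.

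Arrdc2 GR peak: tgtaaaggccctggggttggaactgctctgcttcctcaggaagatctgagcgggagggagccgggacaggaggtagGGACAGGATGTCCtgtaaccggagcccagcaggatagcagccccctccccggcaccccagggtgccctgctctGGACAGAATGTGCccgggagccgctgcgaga

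The other GR peak, at chr8:73322302-73322481, lay 41.2 kb from the start, shared 158 bases with the FOXO1 peak and was nearer to the start of Mast3. It held the palindrome GAACAAAATGTTC and overlapped no DHS.

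Arrdc2 fell with the meal where Arrdc3 rose. In lean mice of the obesity experiment it went from 17.1, 18.8 and 20.5 RPKM unfed to 4.23, 4.19 and 3.12 RPKM fed, a 4.9-fold difference of means. The groups were far apart, and the change was -2.16 (SE 0.25, limma, BH-adjusted p = 0.000419), past the threshold under every alternative run. In injected mice it was at 6.59, 10.1, 10.1 and 9.70 RPKM unfed and at 3.66, 3.25, 3.86 and 4.23 RPKM fed. These groups did not overlap either, and Arrdc2 fell by 1.17 on the log2 scale (SE 0.29, limma, BH-adjusted p = 0.035). This call was lost without any one of fed vehicle replicates 1, 2 or 3 or unfed vehicle replicates 2, 3 or 4, with an adjusted p of at most 0.104, and with no filter (limma, BH-adjusted p = 0.0936). Kupffer cell markers were higher in the same comparison, 1 of 4 past the threshold (Adgre1, by 0.81), with sums of 43.4 to 67.9 RPKM fed and 30.3 to 43.7 RPKM unfed, and their part was not tested. In NRF mice Arrdc2 was at 4.18 and 3.15 RPKM at ZT10, 2.59 and 4.19 RPKM at ZT14-unfed and 1.94 and 1.63 RPKM at ZT14-fed. Both fed livers were lowest, and the meal difference of -0.74 did not pass (limma, BH-adjusted p = 0.0832).

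With dex in fed mice Arrdc2 was at 4.81, 5.40, 7.40 and 20.3 RPKM, every liver above the fed vehicle livers. The difference of 1.00 (SE 0.29, limma, BH-adjusted p = 0.0661) did not pass. It did pass with the replicate block (0.0224), with a term for the library number series (0.0146), with quantile normalization (0.0438) and without dex replicate 1 (0.043), all limma BH-adjusted p. S961 alone gave 3.03, 2.19, 2.28 and 3.66 RPKM, with 3 of the 4 livers below all fed vehicle livers, and a difference of -0.39 that did not pass (limma, BH-adjusted p = 0.62). Dex with S961 gave 14.4, 12.8, 12.4 and 14.5 RPKM, all above every fed vehicle liver, and Arrdc2 rose by 1.73 (SE 0.29, limma, BH-adjusted p = 0.00105), or 3.62-fold in mean level.

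The effect of dex on Arrdc2 was 1.12 larger with S961 than without it (SE 0.41, unadjusted p = 0.0138 by limma), which did not pass adjustment. Without dex replicate 4, the liver at 20.3 RPKM, this difference was 1.55 and passed (limma, BH-adjusted p = 0.0196). By mean level the order was S961 at 2.79 RPKM, fed vehicle at 3.75, unfed vehicle at 9.13, dex at 9.47 and dex with S961 at 13.5 RPKM. Fed and unfed vehicle were the only neighbours in it whose livers did not overlap. Kupffer cell markers were lower with dex and S961 than with fed vehicle in 2 of 4 cases, at sums of 37.1 to 42.5 RPKM. Of the stellate markers, 1 (Rgs5) was lower as well, at sums of 8.35 to 9.65 RPKM against 11.6 to 17.1 RPKM with fed vehicle, without overlap. The part of either in the results on Arrdc2, Arrdc3 and Txnip was not tested.

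Both knockouts lowered Arrdc2. AAV-GFP livers had 8.17, 4.90, 4.92 and 3.12 RPKM and AAV-CRE livers 2.48, 2.61, 2.17 and 2.81 RPKM. The groups did not overlap, and Arrdc2 fell by 0.87 on the log2 scale (SE 0.22, limma, BH-adjusted p = 0.0388). The call was lost without any one of 7 of the 8 livers, with no filter (0.227), without the variance trend (0.0531) and with the replicate block (limma, BH-adjusted p = 0.0534). In fed, dex-treated mice the control livers had 81.7, 43.9, 28.6 and 47.6 RPKM and the L-IRSdKO livers 16.3, 7.38, 11.996 and 5.99 RPKM. All L-IRSdKO livers were below all controls, with means 4.84 times apart, and Arrdc2 fell by 2.22 on the log2 scale (SE 0.36, limma, BH-adjusted p = 0.0064). It stayed past the threshold under all alternatives, with an adjusted p of at most 0.0406.

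In obese mice Arrdc2 was low before the meal. Obese unfed livers had 7.63, 4.62 and 2.95 RPKM, all below the lean unfed livers, and obese fed livers had 3.57, 3.68 and 2.66 RPKM. The difference of obese from lean unfed livers was -1.88 (SE 0.25, limma, BH-adjusted p = 0.00397), the opposite direction to Arrdc3 in the same livers. This call was lost without any one of 5 of the 6 libraries (adjusted p of at most 0.0173), with no filter (0.0284) and in the fit of these 2 groups alone (limma, BH-adjusted p = 0.0633). The meal difference in obese mice was -0.47 (limma, BH-adjusted p = 0.273). The 2 meal effects differed by 1.69 (SE 0.36) and did not pass (limma, BH-adjusted p = 0.0583), but differed by 2.01 without obese unfed replicate 1, which did (limma, BH-adjusted p = 0.00785).

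Txnip lies on the plus strand at chr3:96361880-96365806 (mm9). It had 6 GR peaks, 4 FOXO1 peaks and 16 DHSs within 50 kb of its start, and 1.44% of the 19783 placed genes had as many GR peaks, 3.35% as many FOXO1 peaks and 1.26% as many DHSs. Its nearest GR peak, at chr3:96361610-96361789, was centred 181 bases upstream of the start and shared 132 bases with a FOXO1 peak at chr3:96361658-96361837, centred 133 bases upstream. Both overlapped a DHS. A match to the GR palindrome and a match to GTAAACA, 166 and 118 bases upstream, lay within both peaks and are in capitals in the plus strand of the GR peak.

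Txnip promoter GR peak: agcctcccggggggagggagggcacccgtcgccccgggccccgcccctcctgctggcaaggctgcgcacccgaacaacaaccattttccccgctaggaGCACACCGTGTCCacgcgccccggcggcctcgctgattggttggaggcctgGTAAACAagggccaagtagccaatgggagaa

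The promoter windows of all genes (250 bases before to 50 after the start, 32851 windows in RefSeq GRCm38.p6) held the GR palindrome in 0.475% of cases and GTAAACA in 3.65%. Both motifs were more frequent in peaks or as frequent. The palindrome was in 7.8% of GR and 3.25% of FOXO1 peaks, and GTAAACA in 7.29% of GR and 18.8% of FOXO1 peaks. Another pair of GR and FOXO1 peaks, sharing 148 bases and both overlapping a DHS, was centred 2.65 and 2.61 kb upstream and held neither motif. The antisense gene Gm15441 shares 606 exon bases with Txnip, 20% of the exon bases of Txnip and 36.2% of its own. Since the strand used in counting is not given in the sources used here, reads of the shared stretch cannot be assigned to either gene.

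Txnip was higher in fed mice given S961. The study reports that S961, alone or with dex, brought high blood glucose and high insulin. It also reports raised nonesterified fatty acids after S961. The part of these in the results with S961 on any of the 5 genes was not tested. Fed vehicle livers had 26.8, 18.2, 23.6 and 25.5 RPKM and S961 livers 68.4, 156, 93.6 and 184 RPKM. The lowest S961 liver was above every vehicle liver, fed or unfed, and the mean was 5.34 times that of fed vehicle. The rise was 2.30 (SE 0.38, limma, BH-adjusted p = 0.00418) and held under all alternatives and with any single library left out, with an adjusted p of at most 0.0289. Kupffer cell markers were lower in the same comparison in 1 of 4 cases (Adgre1), at sums of 29.6 to 47.5 RPKM, and their part was not tested.

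With dex and S961 together Txnip was at 32.9, 142, 79.8 and 66.1 RPKM, again above all fed vehicle livers, and rose by 1.58 (SE 0.38, limma, BH-adjusted p = 0.0127). Without the liver at 142 RPKM this missed the threshold (limma, BH-adjusted p = 0.0561). Dex alone gave 12.1, 12.6, 18.4 and 22.6 RPKM, which overlapped fed vehicle, and the difference of -0.54 did not pass (limma, BH-adjusted p = 0.495). In the order by mean, from dex at 16.4 RPKM, fed vehicle at 23.5, unfed vehicle at 38.4 and dex with S961 at 80.3 to S961 at 126 RPKM, the livers of every pair of neighbours overlapped.

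Txnip was also higher without hepatic Irs1 and Irs2. Control livers had 32.6, 41.1, 44.6 and 47.3 RPKM and L-IRSdKO livers 120.1, 223, 313 and 268 RPKM. The groups were far apart, with means 5.58 times apart, and the rise was 2.39 (SE 0.27, limma, BH-adjusted p = 0.00186), past the threshold in every alternative with an adjusted p of at most 0.0193. In this comparison 2 of 4 endothelial markers and 1 of 4 Kupffer cell markers were higher, with Kupffer sums of 171 to 194 RPKM against 107 to 176 RPKM in controls. Of the stellate markers, 1 was higher (Rgs5), at sums of 30.7 to 37.4 RPKM against 21.2 to 29.0 RPKM in controls, and of the cholangiocyte markers 1 was lower (Krt7), at sums of 1.65 to 2.91 RPKM against 3.44 to 5.43 RPKM, both without overlap. Pancreas acinar markers, with 0 past the threshold by limma and 1 at an unadjusted p under 0.05, summed to 2.34 to 9.45 RPKM in L-IRSdKO and 0.297 to 2.57 RPKM in control livers, and 1 of 4 hepatocyte markers (Ttr) fell by 0.45. The part of these in the results on Txnip, Arrdc2 and Arrdc4 was not tested.

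Loss of GR in unfed mice did not separate Txnip. AAV-GFP livers had 79.1, 31.7, 20.6 and 34.3 RPKM and AAV-CRE livers 27.4, 34.3, 119 and 23.5 RPKM, each group with 1 liver well above its others. The difference of 0.14 had an interval of -0.96 to 1.24, and was -0.37 without the liver at 119 RPKM.

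The meal lowered Txnip in lean mice of the obesity experiment, from 77.8, 74.8 and 72.6 RPKM to 17.6, 15.8 and 15.8 RPKM. Both groups were tight and far apart, and the change was -2.16 (SE 0.33, limma, BH-adjusted p = 0.00159), which with no filter on low values was just outside the threshold (0.0117). Fed livers of the other experiments also averaged less than unfed ones without passing the threshold. In injected mice unfed vehicle livers had 43.6, 56.3, 33.5 and 20.1 RPKM, which overlapped fed vehicle, and the difference was -0.62 (limma, BH-adjusted p = 0.407). In NRF mice Txnip was at 18.5 and 23.4 RPKM at ZT10, 26.1 and 83.7 RPKM at ZT14-unfed and 16.5 and 18.1 RPKM at ZT14-fed. The ZT14-unfed livers were the highest but far apart from each other, and the fed difference was -1.41 (limma, BH-adjusted p = 0.101). Without the ZT14-unfed liver at 26.1 RPKM, both the rise from ZT10 (1.98, limma, BH-adjusted p = 0.000773) and the fall with the meal (-2.24, limma, BH-adjusted p = 0.000372) passed, with the remaining liver assumed to vary like the other groups.

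In obese mice Txnip was at 25.6, 50.1 and 71.2 RPKM unfed and 33.8, 21.7 and 14.9 RPKM fed. The groups overlapped, and the meal difference of -1.004 did not pass (limma, BH-adjusted p = 0.0884). It differed from that in lean mice by 1.16 without passing either (limma, BH-adjusted p = 0.284). Obese unfed livers were all below lean unfed livers, and that difference of -0.73 did not pass (limma, BH-adjusted p = 0.218).

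Gm15441 moved with Txnip in each of these calls. It changed by 2.37 with S961 (limma, BH-adjusted p = 0.00561), 1.60 with dex and S961 (limma, BH-adjusted p = 0.0173), 2.45 in L-IRSdKO (limma, BH-adjusted p = 0.00173) and -2.41 with the meal in lean mice (limma, BH-adjusted p = 0.00134). Given the shared exon bases, these values are not independent of those of Txnip.

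Arrdc4, the member closest in kind to Txnip and likewise known as a glucose-responsive gene, lies on the minus strand at chr7:75881931-75894127 (mm9). Its promoter held the E-box CACGTG, the core of the site used by the glucose-responsive factor ChREBP and by clock factors, while 7.15% of all promoter windows did. It is the only one of the members whose promoter window held this motif. The fuller carbohydrate response element CANGNGNNNNNCNCNTG, which can contain the E-box and occurred in 0.557% of windows, had no exact match in any of the 5. Variants of it were not searched. The Txnip window holds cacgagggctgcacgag, which departs from that string only near its end and was not counted, so absence of such a site cannot be read from this search. The 250 bases before the start, chr7:68749239-68749488 on the minus strand of GRCm38.p6, carry the E-box in capitals.

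Arrdc4 promoter: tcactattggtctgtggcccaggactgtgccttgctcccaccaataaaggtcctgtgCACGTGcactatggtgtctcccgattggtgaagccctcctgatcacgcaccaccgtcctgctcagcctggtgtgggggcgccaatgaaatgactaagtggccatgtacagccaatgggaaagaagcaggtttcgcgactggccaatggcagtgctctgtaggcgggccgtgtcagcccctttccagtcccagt

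Arrdc4 rose in L-IRSdKO livers, as Txnip did. Controls had 1.76, 4.78, 2.98 and 4.78 RPKM and L-IRSdKO livers 5.50, 10.2, 9.79 and 11.2 RPKM. The groups did not overlap, with means 2.56 times apart, and the rise was 1.28 (SE 0.31, limma, BH-adjusted p = 0.024). The call was lost without any one of L-IRSdKO replicates 2, 3 or 4 or control replicate 3 (adjusted p of at most 0.0716) and with no filter (limma, BH-adjusted p = 0.097), and about 25 to 194 reads lay behind each of these values. In the other experiments Arrdc4 ranged from 0.847 to 5.23 RPKM and passed in no comparison. With S961 it was at 1.60 to 4.23 RPKM against 1.71 to 2.39 RPKM in fed vehicle livers, and that difference of 0.44 did not pass (limma, BH-adjusted p = 0.538). Obese livers had 1.93 to 3.48 RPKM unfed and 1.28 to 1.96 RPKM fed, and the meal difference of -0.64 did not pass (limma, BH-adjusted p = 0.113). Near the gene, 1 GR and 1 FOXO1 peak, 31.7 and 31.6 kb downstream of the start, shared 159 bases and both overlapped a DHS. Another FOXO1 peak lay at 36.1 kb.

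Arrdc1, which recruits Tsg101 to bud vesicles from the plasma membrane, lies on the minus strand at chr2:24780872-24790772 (mm9) and was the lowest of the 5. It was at 0.432 to 1.35 RPKM outside the L-IRSdKO experiment and at 3.09 to 4.86 RPKM within it, with about 8 to 81 reads behind a value, so small differences were not detectable. It passed in no comparison. In lean mice it was at 0.988 to 1.33 RPKM unfed and 0.681 to 0.701 RPKM fed, without overlap, and the difference of -0.49 (SE 0.12, limma, BH-adjusted p = 0.0153) was just outside 0.01. It passed 0.01 under median-ratio scaling (limma, BH-adjusted p = 0.00986), under quantile normalization, without the variance trend and with its RefSeq transcripts summed. Its nearest GR and FOXO1 peaks were 44.4 kb away, in an intron of Ehmt1, and 40.9 kb away, in an exon of Pnpla7.

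**Figure D3:**
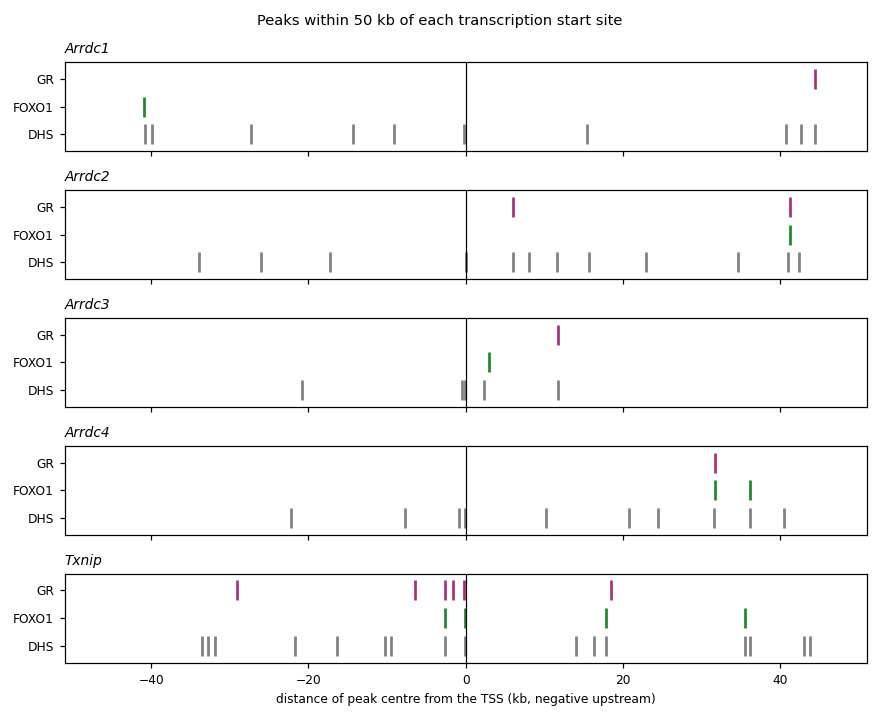
GR peaks, FOXO1 peaks and DHSs within 50 kb of the start of each gene, plotted by the distance of the peak centre from the start in kb, negative upstream. Txnip has 6 GR and 4 FOXO1 peaks, several of them within 3 kb of the start, while the only GR and FOXO1 peaks of Arrdc1 lie over 40 kb away.

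The members' peak counts can be read against all placed genes. A GR peak lay within 50 kb of 33.8% of starts, with a mean of 0.709 peaks a gene, a FOXO1 peak within 50 kb of 35.4%, and a DHS within 50 kb of 88.4%. Within 50 kb, Arrdc1, Arrdc3 and Arrdc4 each had 1 GR peak and so did not stand out from these. Within 100 kb, Arrdc4 had 4 GR peaks, and 12.7% of genes had at least as many, against 6 and 5.2% for Txnip. In that window Arrdc4 and Txnip had 5 FOXO1 peaks each, and 5.99% of genes had at least as many. A DHS was centred within 0.25 kb of every one of the 5 starts. The peak lists hold positions without heights, so no difference in binding between members was tested.

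Across the 54 libraries, with each experiment centred on its own mean, Arrdc2 and Arrdc3 varied in opposite directions (Pearson r = -0.61) and Arrdc4 and Txnip in the same direction (r = 0.54). The other pairs had r between -0.29 and 0.24. These are descriptions over libraries that share treatments, depth and experiment, and groups differ in several genes at once. Of 8996 genes averaging 1 RPKM or more in each experiment, those most like Arrdc2 were Syde2 (r = 0.88), the deubiquitinase gene Usp2 (r = 0.83) and the potassium channel gene Kcnk5 (r = 0.81). Those most like Arrdc3 were the connexin gene Gjb2 (r = 0.83), Fahd1 (r = 0.82) and the lysophosphatidic acid receptor gene Lpar6 (r = 0.82). Gm15441 (r = 0.99), the pyruvate dehydrogenase kinase gene Pdk4 (r = 0.88) and Rab30 (r = 0.85) were most like Txnip. For Arrdc4 they were Peli2, Map4k4 and Xpa, at r = 0.67 each. For Arrdc1, r reached at most 0.59 (Mta1), followed by 0.56 (Crtc2) and 0.55 (Dedd2).

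**Figure D4:**
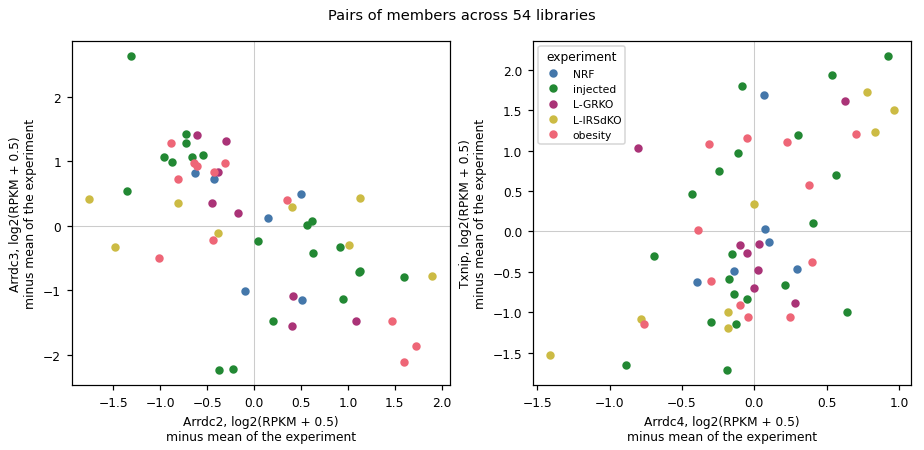
Levels of 2 pairs of members in the 54 libraries, as log2(RPKM + 0.5) minus the mean of the experiment, colored by experiment; each point is one liver. Arrdc2 and Arrdc3 spread along a falling diagonal (r = -0.61), and Arrdc4 and Txnip along a rising one (r = 0.54).

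Genes that work with alpha-arrestins were read from lists of ubiquitin ligases, thioredoxin genes and glucose-sensing genes. The other arrestins (Arrdc5, Arrb1 and Arrb2, of which 2 were tested) had 0 of 2 past the threshold by limma in each of the 15 comparisons, with at most 1 at an unadjusted p under 0.05 in any of them. In L-IRSdKO livers, where Txnip and Arrdc4 were higher and 17.4% of all genes passed, 3 of 8 tested NEDD4-family ligase genes rose (Hecw2 by 1.17, Nedd4 by 0.43 and Smurf2 by 0.34) and none fell, with a list median of 0.33 against 0.03 for all genes. There, 2 of 7 thioredoxin genes rose, the nucleoredoxin gene Nxn by 1.51 and the mitochondrial thioredoxin reductase gene Txnrd2 by 0.37, with a median of 0.01. Of the 8 glucose-sensing factors and targets, each had an unadjusted p under 0.05 by limma, and those past the threshold split, with 3 up, among them Rgs16 by 3.56 and Acacb by 1.28, and 4 down, among them Fasn at -1.08 and the pyruvate kinase gene Pklr at -0.999, for a median of -0.09.

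With S961, where Txnip also rose and 1.9% of all genes passed, 1 of 8 ligase genes rose (Nedd4l by 0.93) and 1 fell (Smurf1 by 0.55), 0 of 6 thioredoxin genes passed by limma or had an unadjusted p under 0.05, and 1 of 8 glucose-sensing genes rose (Rgs16 by 2.81). The medians of these 3 lists lay between -0.13 and 0.21, against -0.08 for all genes. Under dex, where Arrdc3 fell and 3.19% of all genes passed, 0 of 8 ligase, 0 of 6 thioredoxin and 0 of 8 glucose-sensing genes passed by limma, with 0, 2 and 1 of them at an unadjusted p under 0.05. With dex and S961, where 10.6% of all genes passed, 1 of 8 ligase genes rose (Nedd4l by 0.78) and 1 fell (Smurf1 by 0.58), 1 of 6 thioredoxin genes fell (the cytosolic thioredoxin reductase gene Txnrd1 by 0.43), and of 8 glucose-sensing genes Rgs16 rose by 4.41 and Fasn fell by 0.50.

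The meal in lean mice, where Txnip and Arrdc2 fell and 10.2% of all genes passed, lowered 1 of 7 ligase genes (Itch by 0.57) and raised 1 of 6 thioredoxin genes (Txn2 by 0.33). Of 8 glucose-sensing genes, Rgs16 fell by 4.06 and Mlxip, a partner of Mlx in glucose sensing, by 0.80, while Mlx rose by 0.72. In injected mice the same meal comparison, with a background of 3.13%, raised Fasn by 0.54 and lowered Rgs16 by 3.15 among 8 glucose-sensing genes, with 0 of 8 ligase and 0 of 6 thioredoxin genes past the threshold by limma and 1 of each at an unadjusted p under 0.05. With loss of GR (background 6.68%), Wwp1 rose by 0.41 as 1 of 7 ligase genes, Elovl6 rose by 1.17 and Rgs16 fell by 2.04 among 8 glucose-sensing genes, and 0 of 6 thioredoxin genes passed by limma or had an unadjusted p under 0.05. The lists are short, and no difference between a list and all genes was tested.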

How the data were processed

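RNA levels were analysed in 54 liver libraries of 5 experiments. The authors aligned reads to mm9 with STAR, and the deposited table holds RPKM values (reads per kilobase of transcript, scaled to library size) for 35707 RefSeq transcripts, of which 35407 matched a symbol and 300 did not. Strand setting and tool versions are not given in the sources used here. GR and FOXO1 peaks were called by the authors with HOMER against input in unfed livers and kept where replicates shared them, and DHSs were called on combined DNase libraries. The deposited peak lists hold positions only.

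For each experiment, log2(RPKM + 0.5) of genes averaging 0.5 RPKM or more was fitted over all its groups with limma 3.58.1 (R 4.3.3, eBayes with trend), p-values were adjusted by Benjamini-Hochberg, and the study's thresholds of 0.01 or 0.05 were kept. The fit was tried on simulated data with independent noise for each gene, called at 0.05 only. That trial does not cover the threshold of 0.01 or genes that vary together. RPKM are not counts, so no count model was used, and depth was recovered from the steps between low values. The 5 genes were always named, and companion genes by the size of a passing change, at most 4 a list. A list of cargo genes is not described, since the result of 1 companion gene is not reported here. The members and lists were chosen with earlier results of these data known. Libraries are labelled as single mice.

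Same-numbered libraries deviated together in some pairs only (median r of deviations -0.0063 in NRF, 0.14 in injected, 0.04 in L-GRKO, -0.04 in L-IRSdKO and -0.04 in obesity). In injected mice 27 of 40 same-numbered pairs had r above 0.1, and pairs of unlike number had a median r of -0.05. Since this did not hold for every pair, the replicate number was no block in the reported values, and fits with it are given as an alternative. Motifs were searched on both strands of 180-base peaks in mm9 and of RefSeq promoters in GRCm38.p6. Alternatives were another pseudocount, filter, scaling, threshold, transcript choice, variance model, set of groups, block and peak window, and leaving out each library.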

Additional observations from a re-analysis of the deposited data

Results flagged for a closer look

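In 45 sets of 4 livers, 1 gene in 1 group each, 6 held a liver whose gap to the nearest other, divided by the whole range, exceeded Dixon's 95% critical value, and chance gives about 1 in 20. Arrdc2 in unfed vehicle replicate 1 was at 6.59 RPKM, below the others at 9.70 to 10.1 RPKM (gap 0.874 of the range). Arrdc2 in dex replicate 4 was at 20.3 RPKM, above 4.81 to 7.40 RPKM (0.833), and this library belongs to another library number series than replicates 1 to 3. Arrdc3 in AAV-GFP replicate 4 was at 18.8 RPKM, above 5.25 to 7.45 RPKM (0.837). Arrdc4 in fed vehicle replicate 4, a library of the same number series as dex replicate 4, was at 2.39 RPKM, above 1.71 to 1.79 RPKM (0.884). In AAV-CRE replicate 3, Arrdc4 was at 5.23 RPKM, above 3.20 to 3.29 RPKM (0.956), and Txnip was at 119 RPKM, above 23.5 to 34.3 RPKM (0.886), so a single liver gave both of the latter. Without AAV-GFP replicate 4 the rise of Arrdc3 with loss of GR was 2.34 (limma, BH-adjusted p = 0.00118).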

How the results depend on the processing

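Of 590 values of single members under settings other than leaving out a library, 560 kept their direction and side of the threshold, 17 lost the threshold and 13 gained it. With a single library left out, 37 of 408 values lost the threshold, 5 gained it and 8 changed direction. These counts leave out 19 differences smaller than their standard error, of which 14 changed sign and 0 passed the threshold under some setting. The cause of these changes was not tested. Without a filter, 24312 genes were adjusted for in each experiment, against 10907 to 12966 with it. The variance trend was then also fitted over all of them, and the part of each was not tested.

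Without a filter on low values, the number of members past the threshold fell to 0 from ZT10 to ZT14-unfed, 0 for the meal in NRF mice, 0 for the meal in injected mice, 0 in L-GRKO, 1 for the meal in lean mice and 0 for obese against lean unfed livers. All genes past the threshold then numbered 0 in the NRF comparisons, against 108 to 186 with the filter, 175 against 778 in L-GRKO, 1037 against 2253 in L-IRSdKO, 528 against 1169 for the meal in lean mice, 3 against 140 in obese mice, 0 against 88 for obese against lean unfed livers, 188 against 352, 229 against 359 and 147 against 214 for the injected meal, dex and S961, 2 against 15 for meal by diet and 1 against 0 for obese against lean fed. Fitting only the compared groups gave 0 members from ZT10 to ZT14-unfed, 2 for the injected meal and 0 for obese against lean unfed livers, and of all genes 2 from ZT10 to ZT14-unfed, 66 for the NRF meal, 309 from ZT10 to ZT14-fed, 87 for dex, 24 for S961, 0 for the obese meal, 5 for obese against lean unfed and 93 for obese against lean fed livers. For the injected meal 2 members passed with a pseudocount of 1, 2 with a filter at 2 RPKM and 2 with a term for the library series, and for dex 2 passed with quantile normalization and 2 with that term. Without the variance trend 1 passed in L-GRKO.

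With the replicate number as a block, 0 members passed from ZT10 to ZT14-unfed, 2 for the injected meal, 2 for dex, 1 in L-GRKO and 1 for obese against lean unfed livers. All genes past the threshold under it numbered 10, 40 and 51 in the NRF comparisons (ZT10 to ZT14-unfed, the meal, and ZT10 to ZT14-fed), 928 for the injected meal, 968 for dex, 432 for S961 and 2041 for dex with S961, 1444 in L-IRSdKO, 62 for the obese meal, 3 for meal by diet and 40 for obese against lean unfed livers. A library correlated best with its own number in 4 of 6 NRF, 12 of 20 injected, 3 of 8 L-GRKO, 2 of 8 L-IRSdKO and 4 of 12 obesity libraries.

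With single libraries left out, members past the threshold ranged from 0 to 2 from ZT10 to ZT14-unfed, 0 to 2 for the NRF meal, 0 to 1 for the injected meal, 1 to 2 for dex, 1 to 1 for S961, 2 to 3 for dex with S961, 0 to 1 for the dex by S961 interaction, 1 to 2 in L-GRKO, 2 to 3 in L-IRSdKO, 2 to 3 for the lean meal, 0 to 1 for meal by diet and 0 to 2 for obese against lean unfed livers. The log2 difference of Arrdc3 ranged from -0.0978 to 0.5985 with S961, from -0.0573 to 0.3438 in L-IRSdKO, from -0.6723 to 0.0606 for the meal in obese mice and from -0.3137 to 0.4996 for obese against lean fed livers, where it was also -0.2333 and -0.2120. That of Txnip in L-GRKO ranged from -0.3738 to 0.5093 and was -0.1295 without AAV-GFP replicate 3. None of these passed the threshold in any setting. A further 19 differences smaller than their standard error are given in the text as levels only. All genes past the threshold ranged from 2 (without ZT10 replicate 2) to 208 from ZT10 to ZT14-unfed, 5 (without ZT14-fed replicate 1) to 235 for the NRF meal (both highest without ZT14-unfed replicate 1), 3 to 18 from ZT10 to ZT14-fed, 86 to 394 for the injected meal, 158 to 537 for dex, 113 to 281 for S961, 667 to 1087 for dex with S961, 391 to 708 in L-GRKO, 1080 to 3021 in L-IRSdKO, 424 to 715 for the lean meal, 0 to 113 for the obese meal, 0 to 18 for meal by diet and 5 to 357 for obese against lean unfed livers.

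Within 20 kb of the starts lay 7 GR peaks, 4 FOXO1 peaks and 26 DHSs, and within 100 kb 15 GR peaks, 15 FOXO1 peaks and 85 DHSs, against 11, 9 and 53 within 50 kb. Depth limits Arrdc1 most, with 8 reads at the lowest, and L-IRSdKO libraries were the shallowest.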
